A study of Mus musculus with 30 samples.

Results

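Cardiac fibroblasts of 3-month-old wild-type mice that had received the reprogramming factors Mef2c, Gata4 and Tbx5 (MGT) were compared with fibroblasts of the same age that had received LacZ, both at day 3. The comparison used 2 MGT and 2 LacZ libraries, which are 4 of the 30 samples of the series, and every gene of their count table. The table also held 2 MGT and 2 LacZ libraries each of neonatal cells (postnatal day 1 to 3) and of 18-month cells, used here to ask whether the MGT effect differed with age. The other 18 samples, on fibroblasts without factors, on Nr4a3 and on single cells, were not used here. All cells were primary cells from the heart. The labels give neither the vector nor the share of cells that took up the factors, so each library may mix transduced and other cells. They do not say whether the 2 libraries of a group came from separate cultures or animals, and p-values then measure only the spread between these samples, which may be technical.

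Fibroblasts make and remodel the collagen matrix of the heart. Mef2c, a MADS-box factor of muscle, Gata4, a zinc-finger factor, and Tbx5, a T-box factor, act together at enhancers of heart muscle genes, and forcing all 3 into a fibroblast can turn some of the cells into cardiomyocyte-like cells without a stem cell stage. In this process sarcomere genes come on early and fibroblast genes are turned down, and adult cells are known to convert less readily than neonatal ones. LacZ encodes a bacterial enzyme and controls for gene delivery.

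Depth was 14489836 to 17576309 counts in the 4 libraries. Levels are given in CPM, counts for each 1000000 counts of a library, scaled with edgeR's TMM factors. The 10 fibroblast markers were all above the filter on low counts and summed to 16542 and 17267 CPM in MGT cells, against 19679 and 19199.7 CPM in LacZ cells. By the test given below, 1 of them was higher and 4 were lower in MGT cells, and Col3a1 made up much of the difference. Cardiomyocyte markers summed to 315 and 349 CPM in MGT cells, against 4.67 and 4.03 CPM in LacZ cells. Most of the MGT sum was Tnnt2, and 4 of the 8 tested markers were higher and 0 lower. Endothelial markers summed to 46.8 and 37.7 CPM in MGT cells, against 42.1 and 41.7 CPM in LacZ cells, and macrophage markers to 414 and 424 CPM in MGT cells, against 321 and 327 CPM in LacZ cells. Lymphocyte and erythroid markers had 0 members above the filter. The 2 LacZ libraries differed by gene length: LacZ library 2 over LacZ library 1 had a median log2 ratio of 0.22 in genes of up to 2583 exonic bases and -0.23 in genes of at least 7990 bases, against 0.04 and -0.04 between the MGT libraries.

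**Figure D1:**
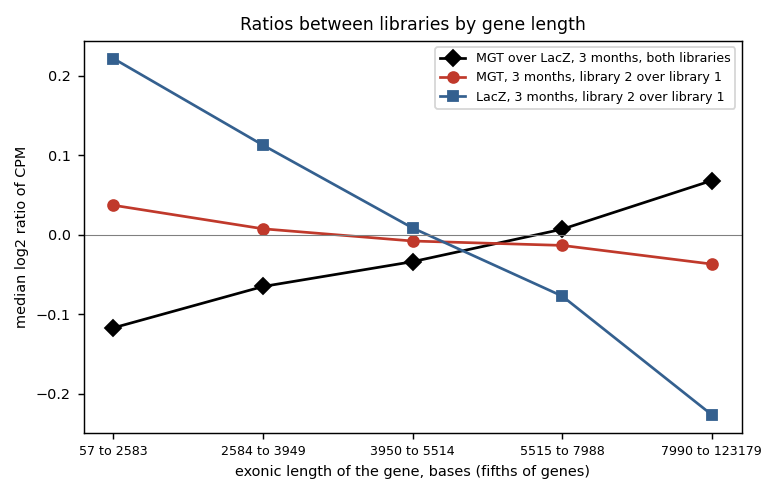
Median log2 ratio of CPM between libraries of 3-month cells (y axis) for 5 groups of genes by exonic length in bases (x axis). The LacZ libraries (blue) run from 0.22 in the shortest group to -0.23 in the longest, the MGT libraries (red) from 0.04 to -0.04, and MGT over LacZ with both libraries (black) from -0.12 to 0.07.

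A gene was called when its adjusted p, from edgeR's quasi-likelihood test with Benjamini-Hochberg adjustment over the 16368 genes tested, was under 0.05. MGT cells differed from LacZ cells at 2846 genes (17.4%), of which 1472 (8.99%) were higher and 1374 (8.39%) lower in MGT cells. Of these, 629 were at least 2-fold higher (3.84% of genes tested) and 301 at least 2-fold lower (1.84%). The median log2 fold change (log2FC, MGT over LacZ) over all genes tested was -0.01. The number of calls was 4476 without LacZ library 1, 2455 without LacZ library 2, 1732 without MGT library 1 and 1859 without MGT library 2. The MGT and LacZ libraries did not overlap at any of the 2846 called genes, and did not overlap at 51.8% of all genes tested. Statements below that the libraries of called genes lay apart therefore describe levels and add nothing to the call. In bulk RNA, fewer cells with a transcript and less of it per cell cannot be told apart.

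The delivered genes check the labels. Tbx5 (ENSMUSG00000018263, chromosome 5, 119832668 to 119885219, plus strand, GRCm38 here and below) had 289 and 278 CPM in MGT cells, against 1.22 and 0.795 CPM in LacZ cells (log2FC 8.15 ± 0.19, edgeR adjusted p = 6.16e-19). Mef2c (ENSMUSG00000005583, chromosome 13, 83504034 to 83667080, plus strand) had 214 and 200.1 CPM in MGT cells, against 10.1 and 8.97 CPM in LacZ cells (log2FC 4.44 ± 0.14, edgeR adjusted p = 3.24e-17). Gata4 (ENSMUSG00000021944, chromosome 14, 63198922 to 63271692, minus strand) had 238 and 235 CPM in MGT cells, against 123 and 117 CPM in LacZ cells (log2FC 0.98 ± 0.09, edgeR adjusted p = 4.41e-09). All 3 were higher in both MGT libraries than in either LacZ library, and only Gata4 was already above 100 CPM in LacZ cells. Per exonic length, Tbx5 stood at 60.8 ± 1.74 FPKM in MGT cells and 0.215 ± 0.0636 FPKM in LacZ cells (SD, n = 2 each). Gata4 stood at 60.7 ± 0.658 FPKM in MGT cells and 30.6 ± 0.827 FPKM in LacZ cells, and Mef2c at 13.2 ± 0.636 FPKM in MGT cells and 0.605 ± 0.0495 FPKM in LacZ cells. On the FPKM scale Tbx5 and Gata4 had similar values in MGT cells, and Mef2c a lower one. FPKM divides by the gene's whole exonic length, and the length of the delivered copies is not given. These values therefore do not rank the amounts of the delivered genes. In CPM the 3 genes lay between 200.1 and 289 in MGT cells. The counts cannot tell transcripts of a delivered gene from those of the cell's own copy.

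The 10 largest rises and 10 largest falls were taken from called genes with an average of at least 8 CPM (log2 CPM of 3). The rises were Tbx5 itself and the muscle genes Myl7, Xirp2, Actc1, Myom2, Synpo2l, Tnnt2, Myl4, Myh1 and Des. Of the falls, 5 were interferon-induced genes (Ifit3b, Ifit3, Cxcl10, Tgtp2 and Gbp5). The other 5 were the matrix genes Col28a1 and Col14a1, the secreted Wnt modulator Sfrp2, the oxysterol hydroxylase gene Cyp7b1 and the mitochondrial protein gene Ndufa4l2.

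**Figure D2:**
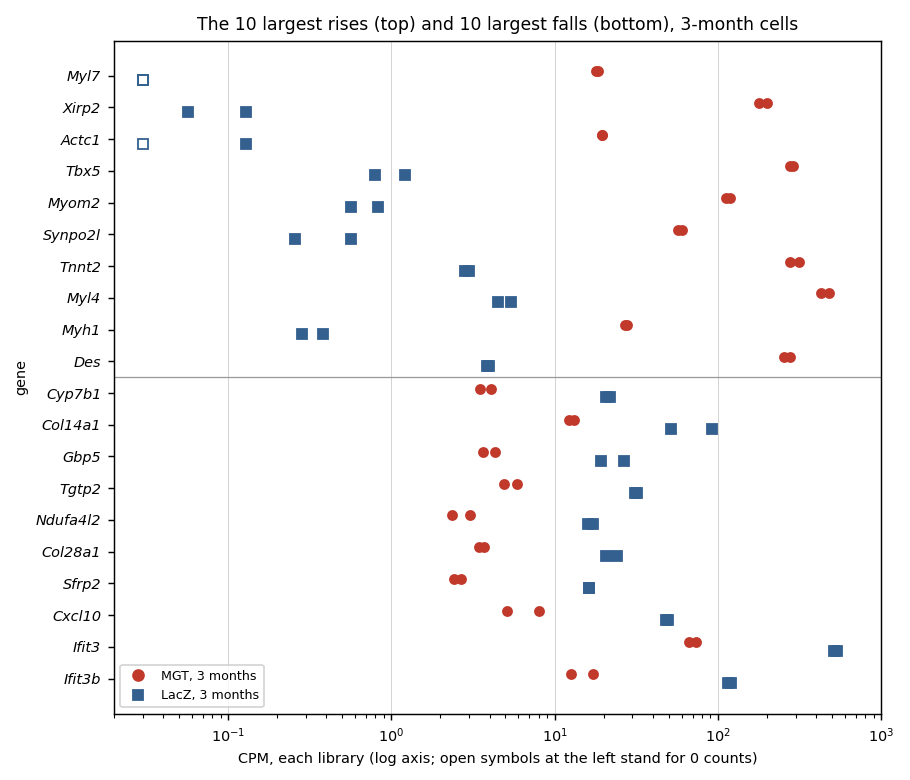
CPM of each library (log x axis) for the 10 largest rises (top) and 10 largest falls (bottom) in 3-month cells, MGT as red circles and LacZ as blue squares, with 0 counts drawn open at the left. Tnnt2 lies at 276 and 313 CPM in MGT cells and at 2.81 and 3.01 CPM in LacZ cells, and Ifit3 at 73.3 and 66.7 CPM in MGT cells and at 513 and 539 CPM in LacZ cells.

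The sarcomere, the contractile unit of striated muscle, is built of thin actin filaments, thick myosin filaments, and the Z-disc and M-band that hold them in register. Of the thin-filament genes, 8 of 11 tested members (12 listed) rose and 0 fell (median log2FC 1.08), beside 8.99% and 8.39% of all genes tested. Tnnt2, cardiac troponin T (ENSMUSG00000026414, chromosome 1, 135836354 to 135852260, plus strand), had 276 and 313 CPM in MGT cells, against 2.81 and 3.01 CPM in LacZ cells (log2FC 6.66 ± 0.26, edgeR adjusted p = 5.79e-08). Cardiac actin, Actc1, had 19.5 and 19.4 CPM in MGT cells, against 0.128 and 0 CPM in LacZ cells. From 596 counts in the MGT libraries and 2 in the LacZ libraries, the ratio for Actc1 was 323 (exact 95% interval 89.1 to 2676). The LacZ libraries of both genes sat at or near the bottom of the scale, and the MGT libraries lay close together. Tropomyosin 1, Tpm1, was by contrast abundant in both groups, with 1434 and 1484 CPM in MGT cells, against 755 and 786 CPM in LacZ cells (log2FC 0.92 ± 0.08, edgeR adjusted p = 2.53e-09). Lmod2, which lengthens thin filaments at their free ends, had 61 counts over the MGT libraries and 0 over the LacZ libraries, at least 22.1-fold higher against a floor of 3 counts over the LacZ group. List medians were equal to 2 decimals with such genes set to their bound, but bounds this far above the medians could not move them. The number of thin-filament genes that rose was 4 when the 3-month libraries were fitted alone.

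Thick-filament genes were more uneven, and 3 of 8 tested members (12 listed) rose and 0 fell (median log2FC 0.35). The median of these 8 members was 0.09 without LacZ library 1 and 0.80 without LacZ library 2, and between 0 and 0.42 over the 9 members above the filter when 1 library was left out. The members that rose were the atrial light chain genes Myl7 and Myl4 and the gene of myosin-binding protein C, Mybpc3. Myl7 had 560 counts over the MGT libraries and 0 over the LacZ libraries, at least 203-fold higher against the same floor. Myl4 had 431 and 478 CPM in MGT cells, against 4.48 and 5.39 CPM in LacZ cells (log2FC 6.52 ± 0.23, edgeR adjusted p = 9.15e-09). Mybpc3 had 2.60 and 2.28 CPM in MGT cells, against 0.128 and 0 CPM in LacZ cells, a ratio of 40.7 (exact 95% interval 10.9 to 342). The ventricular light chain gene Myl2 pointed the other way without passing the test, with 1 count over the MGT libraries and 13 over the LacZ libraries (log2FC -3.31 ± 1.17, edgeR adjusted p = 0.0521), a ratio of 0.0835 (exact 95% interval 0.00196 to 0.556). Myh6, the adult mouse heart's main myosin heavy chain, was looked up after the other values were seen and had 0 counts in each of the 4 libraries.

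Z-disc and M-band genes had the highest median of the 36 gene lists, and 15 of 18 tested members (20 listed) rose and 0 fell (median log2FC 2.84). Xirp2, a Xin-repeat actin-binding protein (ENSMUSG00000027022, chromosome 2, 67173834 to 67526615, plus strand), had 201 and 179.5 CPM in MGT cells, against 0.128 and 0.0568 CPM in LacZ cells. Those LacZ values stand for 3 counts in all, and the ratio was 2115 (exact 95% interval 723 to 10260.1). Csrp3, the muscle LIM protein, had 13.0 and 15.9 CPM in MGT cells, against 0 and 0.0568 CPM in LacZ cells, a ratio of 477 (exact 95% interval 85.2 to 18901). Both genes had clear expression in MGT cells and next to no counts in LacZ cells. Myom2 of the M-band had 118 and 112 CPM in MGT cells, against 0.831 and 0.568 CPM in LacZ cells (log2FC 7.36 ± 0.25, edgeR adjusted p = 9.22e-13). Synpo2l, an actin-binding Z-disc protein, had 60.2 and 57.1 CPM in MGT cells, against 0.256 and 0.568 CPM in LacZ cells (log2FC 7.10 ± 0.25, edgeR adjusted p = 4.1e-15). Ldb3, which binds alpha-actinin at the Z-disc, had 34.7 and 35.6 CPM in MGT cells, against 3.20 and 3.41 CPM in LacZ cells (log2FC 3.41 ± 0.16, edgeR adjusted p = 7.48e-15). In each of these 5 genes the MGT libraries lay close together and at least 10 times above the LacZ libraries. The number that rose was 14 without LacZ library 1 and 15 without LacZ library 2.

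Promoters of this group are shown because several hold the letters that MEF2 proteins bind. The letters CTA and TAG with any 4 bases between them, which read the same on both strands, were searched in RefSeq windows (GRCm38.p6) from 250 bases before to 50 bases after the start that RefSeq gives, which in Xirp2 lies inside the gene as the count table's annotation draws it. They were present in 6 of the 13 Z-disc and M-band genes with a window (46.2%), in 21 of 418 called genes at least 2-fold higher in MGT cells (5.02%), in 5 of 196 called genes at least 2-fold lower (2.55%), in 351 of 11501 genes tested (3.05%), and in 999 of 27025 promoters in all (3.7%). Among other lists of heart muscle genes they were present in 0 of 10 thin-filament genes, 1 of 12 thick-filament genes and 0 of 9 calcium-handling genes that have a window. Letters bound by GATA factors (AGATAA, both strands) were in 36 of the 418 (8.61%) and in 23 of the 196 (11.7%), against 6.39% of genes tested and 11.4% of all promoters. T-box letters (AGGTGTGA, both strands) were in 7 of the 418 (1.67%) and in 3 of the 196 (1.53%), against 0.835% of genes tested and 1.27% of all promoters. The windows shown are those of Xirp2 (chr2:67445752-67446051, plus strand), Synpo2l (chr14:20668305-20668604, minus strand), Ttn (chr2:76982498-76982797, minus strand), Ldb3 (chr14:34588632-34588931, minus strand) and the intermediate filament gene Des (chr1:75360042-75360341, plus strand), 5′ to 3′, with matches in capitals. The MEF2 match begins 74 bases before the start in Xirp2, 109 before it in Synpo2l and 166 before it in Ttn, and 20 and 7 bases after it in Ldb3 and Des. Ldb3 also has a CArG box in capitals, the letters that serum response factor binds, 35 to 26 bases before the start, which overlaps no other match. CArG letters were in 15 of the 418 (3.59%), 2 of the 196 (1.02%) and 2 of the 13 Z-disc and M-band genes (15.4%). They were in 1.32% of genes tested and 1.57% of all promoters. A match describes letters only.
Xirp2: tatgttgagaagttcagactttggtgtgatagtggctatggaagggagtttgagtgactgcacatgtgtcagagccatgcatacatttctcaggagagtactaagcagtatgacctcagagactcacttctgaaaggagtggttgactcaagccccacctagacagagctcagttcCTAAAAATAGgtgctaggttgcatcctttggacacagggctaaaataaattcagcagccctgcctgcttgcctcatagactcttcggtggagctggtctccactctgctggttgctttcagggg
Synpo2l: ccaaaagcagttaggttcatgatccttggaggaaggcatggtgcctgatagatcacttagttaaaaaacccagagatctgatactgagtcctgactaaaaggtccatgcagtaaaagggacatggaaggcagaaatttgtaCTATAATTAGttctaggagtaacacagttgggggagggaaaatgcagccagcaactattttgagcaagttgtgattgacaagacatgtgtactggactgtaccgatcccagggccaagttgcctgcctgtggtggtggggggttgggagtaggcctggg
Ttn: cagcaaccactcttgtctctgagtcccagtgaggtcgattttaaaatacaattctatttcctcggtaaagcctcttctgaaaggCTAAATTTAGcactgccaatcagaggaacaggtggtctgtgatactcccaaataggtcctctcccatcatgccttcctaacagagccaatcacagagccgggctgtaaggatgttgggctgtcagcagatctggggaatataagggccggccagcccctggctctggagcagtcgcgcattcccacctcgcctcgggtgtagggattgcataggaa
Ldb3: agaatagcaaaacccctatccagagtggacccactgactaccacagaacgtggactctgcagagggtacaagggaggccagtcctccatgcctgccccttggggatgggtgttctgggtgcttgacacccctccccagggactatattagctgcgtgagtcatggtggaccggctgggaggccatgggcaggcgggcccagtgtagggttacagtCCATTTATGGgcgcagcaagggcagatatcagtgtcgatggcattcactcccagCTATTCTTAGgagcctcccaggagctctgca
Des: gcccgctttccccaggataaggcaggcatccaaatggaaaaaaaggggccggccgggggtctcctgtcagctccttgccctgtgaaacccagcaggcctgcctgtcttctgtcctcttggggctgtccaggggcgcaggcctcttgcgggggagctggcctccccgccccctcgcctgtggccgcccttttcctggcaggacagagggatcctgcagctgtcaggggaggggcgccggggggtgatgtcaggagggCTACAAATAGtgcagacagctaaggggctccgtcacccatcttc

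Ttn and Des are given with their promoters. Titin, Ttn, the spring that spans from Z-disc to M-band, had 39.7 and 32.4 CPM in MGT cells, against 1.15 and 1.14 CPM in LacZ cells (log2FC 4.97 ± 0.40, edgeR adjusted p = 3.31e-05). Desmin, Des, which links Z-discs sideways, had 254 and 277 CPM in MGT cells, against 3.84 and 3.98 CPM in LacZ cells (log2FC 6.08 ± 0.14, edgeR adjusted p = 3.1e-21). That p was the smallest of the genes named here, and the MGT libraries of Des stood more than 60 times above its LacZ libraries.

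Calcium release from the sarcoplasmic reticulum drives each heartbeat, and of its genes 7 of 14 tested members (16 listed) rose and 0 fell (median log2FC 0.27), with a median of 0.43 for these members without LacZ library 1. The release channel gene Ryr2 had 15.1 and 13.3 CPM in MGT cells, against 0.320 and 0.170 CPM in LacZ cells (log2FC 5.84 ± 0.33, edgeR adjusted p = 3.97e-13). Calsequestrin 2, Casq2, which buffers calcium in the store, had 11.0 and 10.9 CPM in MGT cells, against 0.0640 and 0.114 CPM in LacZ cells, a ratio of 121 (exact 95% interval 41.1 to 591). Both were barely present in LacZ cells. Junctophilin 1, Jph1, which holds store and surface membranes together, had 11.5 and 12.1 CPM in MGT cells, against 1.85 and 2.16 CPM in LacZ cells (log2FC 2.55 ± 0.21, edgeR adjusted p = 4.94e-10). The calmodulin-dependent kinase gene Camk2a had 21.4 and 25.1 CPM in MGT cells, against 3.97 and 3.92 CPM in LacZ cells (log2FC 2.56 ± 0.16, edgeR adjusted p = 5.19e-12). Atp2a2, the pump that refills the store, was looked up after its value was seen and was abundant in both groups, with 563 and 544 CPM in MGT cells, against 524 and 467 CPM in LacZ cells (log2FC 0.16 ± 0.08, edgeR adjusted p = 0.179), and passed the test only without LacZ library 1.

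Among ion channels and connexins, 7 of 14 tested members (19 listed) rose and 1 fell (median log2FC 1.12). Hcn4, the pacemaker channel of the sinus node, had 117 counts over the MGT libraries and 0 over the LacZ libraries, at least 42.3-fold higher. Kcnj5, part of the acetylcholine-gated potassium channel of the atrium, had 1.61 and 2.21 CPM in MGT cells, against 0.256 and 0 CPM in LacZ cells (log2FC 3.90 ± 0.66, edgeR adjusted p = 0.000125). Both channels stayed below 5 CPM even in MGT cells. Connexin 43, Gja1, was abundant in LacZ cells already, with 173 and 172 CPM in MGT cells, against 115 and 141 CPM in LacZ cells (log2FC 0.43 ± 0.09, edgeR adjusted p = 0.00103). Connexin 45, Gjc1, fell, with 28.8 and 31.6 CPM in MGT cells, against 38.9 and 36.7 CPM in LacZ cells (log2FC -0.32 ± 0.10, edgeR adjusted p = 0.0294). Gjc1 was not called without LacZ library 1, nor with either MGT library left out, and the number of members that rose was 4 without MGT library 2.

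Of the cardiac transcription factors other than the delivered 3, 4 of 20 tested members (25 listed) rose and 2 fell (median log2FC 0.12). These are 20% and 10%, beside 8.99% and 8.39% of all genes tested. Tbx3, a factor of the conduction system, had 10.5 CPM in each library of MGT cells, against 2.24 and 1.93 CPM in LacZ cells (log2FC 2.33 ± 0.24, edgeR adjusted p = 4.5e-08). Myocardin, Myocd, a coactivator of serum response factor in heart and smooth muscle, had 5.14 and 3.17 CPM in MGT cells, against 0.128 and 0.454 CPM in LacZ cells (log2FC 3.77 ± 0.45, edgeR adjusted p = 4.75e-07). Tbx20 and Hand2, which heart fibroblasts also express, were the members that fell. Tbx20 had 407 and 430.2 CPM in MGT cells, against 676 and 557 CPM in LacZ cells (log2FC -0.56 ± 0.10, edgeR adjusted p = 0.000218). Hand2 had 33.3 and 34.8 CPM in MGT cells, against 45.3 and 52.6 CPM in LacZ cells (log2FC -0.52 ± 0.11, edgeR adjusted p = 0.000741). Every MGT value of these 2 genes lay below both LacZ values.

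Of the natriuretic peptides and other secreted products of heart cells, 4 of 8 tested members (10 listed) rose and 3 fell (median log2FC 1.32). The median of these 8 members was 1.12 to 1.5 with 1 library left out. Over the 9 members above the filter in such fits it was -0.98 without MGT library 1, -0.67 without MGT library 2 and 0.19 without LacZ library 1. The atrial natriuretic peptide gene Nppa had 3.84 and 4.14 CPM in MGT cells, against 0.256 and 0 CPM in LacZ cells (log2FC 4.96 ± 0.55, edgeR adjusted p = 2.56e-07). The B-type peptide gene Nppb had 6.82 and 7.93 CPM in MGT cells, against 0.128 and 0.170 CPM in LacZ cells (log2FC 5.54 ± 0.50, edgeR adjusted p = 1.05e-08). The vasoactive peptides went the other way. Endothelin 1, Edn1, which constricts vessels, had 24.5 and 20.5 CPM in MGT cells, against 61.8 and 61.5 CPM in LacZ cells (log2FC -1.45 ± 0.12, edgeR adjusted p = 4.57e-10). Adrenomedullin, Adm, which widens them, had 219 and 226 CPM in MGT cells, against 439 and 505 CPM in LacZ cells (log2FC -1.09 ± 0.08, edgeR adjusted p = 2.15e-10).

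Fuel genes of heart muscle were mostly not called, and 4 of 16 tested members (22 listed) rose and 1 fell (median log2FC 0.41). The median of these 16 members was 0.75 without LacZ library 1, 0.22 without LacZ library 2 and 0.26 without MGT library 1, and over the 18 above the filter without LacZ library 2 it was 0.17. Pdk4, the kinase that shuts down pyruvate dehydrogenase, had 52.2 and 60.6 CPM in MGT cells, against 7.74 and 8.75 CPM in LacZ cells (log2FC 2.77 ± 0.14, edgeR adjusted p = 3.31e-14). Fabp3, a fatty acid carrier, rose (log2FC 1.17 ± 0.19, edgeR adjusted p = 4.18e-05), as did Eno3, the muscle enolase (log2FC 1.33 ± 0.15, edgeR adjusted p = 2.85e-07). Lipoprotein lipase, Lpl, which frees fatty acids from circulating fat, had 141 and 137 CPM in MGT cells, against 355 and 271 CPM in LacZ cells (log2FC -1.17 ± 0.12, edgeR adjusted p = 1.35e-06).

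Of the skeletal muscle genes 4 of 9 tested members (23 listed) rose and 0 fell (median log2FC 0.70). The median was 0.46 with an adjustment for gene length that was added after the data were seen. Myh1, a fast skeletal myosin heavy chain, had 27.1 and 27.6 CPM in MGT cells, against 0.384 and 0.284 CPM in LacZ cells (log2FC 6.34 ± 0.40, edgeR adjusted p = 5.96e-08). Its sequence is close to that of Myh2 and Myh4, so reads may be split among them. Chrnb1, a subunit of the acetylcholine receptor, rose (log2FC 0.70 ± 0.16, edgeR adjusted p = 0.00173). The number that rose was 2 without MGT library 1 and 1 without MGT library 2, where Chrnb1 was not called.

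**Figure D3:**
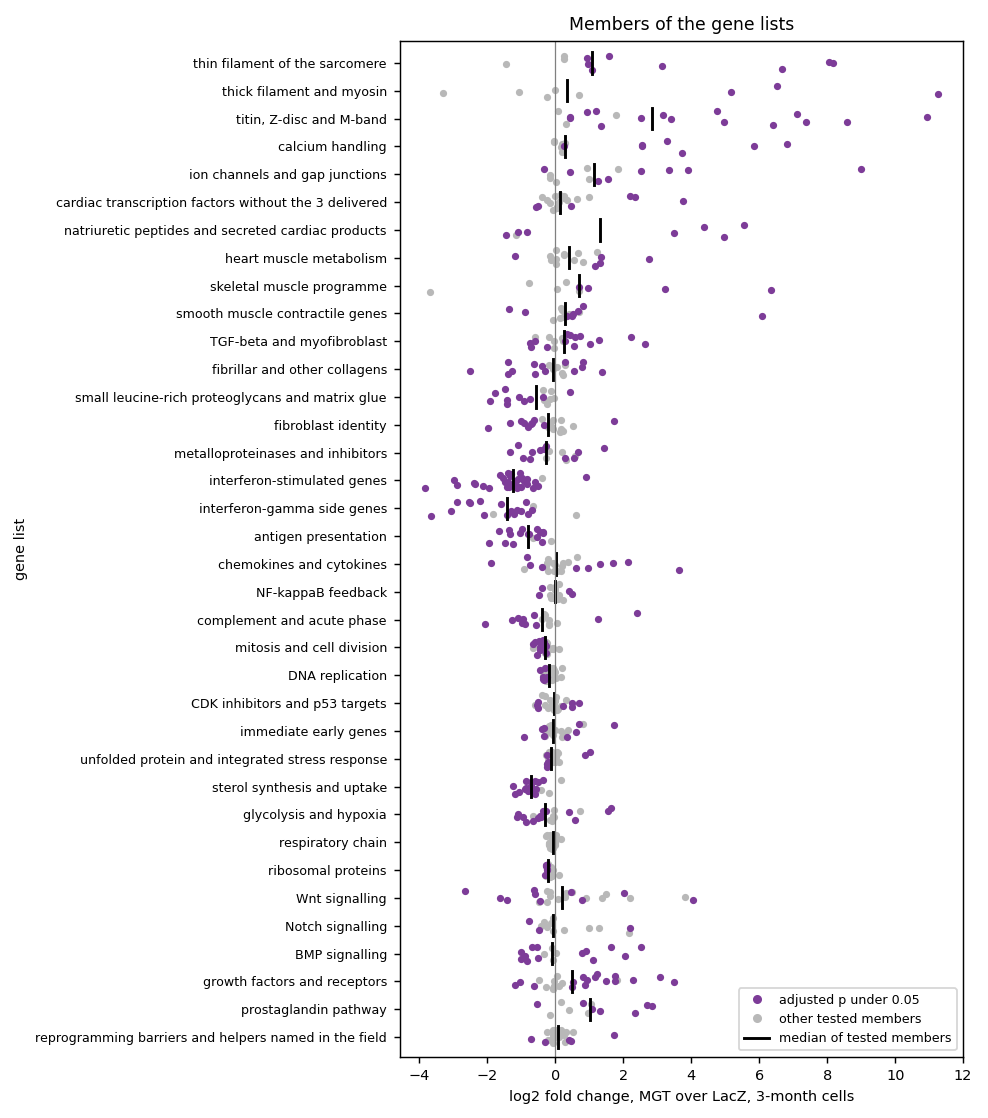
log2FC of MGT over LacZ in 3-month cells (x axis) for every tested member of the 36 gene lists (y axis), purple where the adjusted p is under 0.05 and grey otherwise, with black bars at the medians. Genes with 0 to 3 counts in LacZ cells, such as Myl7, stand at fitted values that depend on edgeR's prior count. The Z-disc and M-band list has its median at 2.84, the interferon lists at -1.25 and -1.43, and sterol synthesis at -0.71.

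Of the fibroblast identity genes, 1 of 21 tested members (22 listed) rose and 9 fell (median log2FC -0.20), with a median of -0.40 without LacZ library 1. Tcf21, a factor of the cardiac fibroblast lineage, had 63.3 and 78.9 CPM in MGT cells, against 178 and 184 CPM in LacZ cells (log2FC -1.35 ± 0.12, edgeR adjusted p = 2.57e-08). The surface marker gene Ly6a (Sca-1) had 88.8 and 96.0 CPM in MGT cells, against 325 and 406 CPM in LacZ cells (log2FC -1.98 ± 0.10, edgeR adjusted p = 5.43e-14). Cd248, a marker of stromal cells, had 40.9 and 45.6 CPM in MGT cells, against 79.1 and 83.6 CPM in LacZ cells (log2FC -0.91 ± 0.10, edgeR adjusted p = 2.09e-07). Both MGT libraries were lower than both LacZ libraries in these 3 genes. Pdgfra, the receptor that marks resident fibroblasts, had 589.8 and 596 CPM in MGT cells, against 964 and 879.5 CPM in LacZ cells (log2FC -0.64 ± 0.09, edgeR adjusted p = 3.99e-06). Thy1, a glycoprotein used to sort fibroblasts, was the member that rose, with 513 and 589 CPM in MGT cells, against 158 and 172 CPM in LacZ cells (log2FC 1.74 ± 0.09, edgeR adjusted p = 4.99e-14).

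Small proteoglycans and elastic fibre proteins organise collagen, and of their genes 1 of 16 tested members rose and 9 fell (median log2FC -0.56). Mfap4, an elastic fibre protein, had 6.26 and 7.03 CPM in MGT cells, against 25.5 and 25.2 CPM in LacZ cells (log2FC -1.93 ± 0.19, edgeR adjusted p = 2.81e-08). Prelp, a collagen-binding proteoglycan, had 113 and 135 CPM in MGT cells, against 385 and 284 CPM in LacZ cells (log2FC -1.43 ± 0.13, edgeR adjusted p = 5.94e-07). Elastin, Eln, had 3.66 and 4.14 CPM in MGT cells, against 11.2 and 10.6 CPM in LacZ cells (log2FC -1.49 ± 0.17, edgeR adjusted p = 2.93e-07). The groups did not overlap in any of these 3 genes, as in every called gene. Fbln1, a fibulin of the matrix, fell as well (log2FC -0.92 ± 0.09, edgeR adjusted p = 4.23e-08), while the microfibril gene Mfap5 was the member that rose (log2FC 0.44 ± 0.09, edgeR adjusted p = 0.000382).

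Collagens moved in both directions, and 5 of 19 tested members rose and 8 fell (median log2FC -0.06). Col3a1, a fibrillar collagen of soft tissue, had 1495 and 1708 CPM in MGT cells, against 4268 and 4093 CPM in LacZ cells (log2FC -1.38 ± 0.10, edgeR adjusted p = 1.69e-10). Col6a1, a chain of the beaded filaments around cells, had 119 and 134 CPM in MGT cells, against 321 and 292 CPM in LacZ cells (log2FC -1.28 ± 0.13, edgeR adjusted p = 1.86e-06). Col14a1, which coats fibrils, had 12.3 and 13.1 CPM in MGT cells, against 92.2 and 51.3 CPM in LacZ cells (log2FC -2.50 ± 0.37, edgeR adjusted p = 0.00372). All 3 were lower in both MGT libraries, and the LacZ libraries of Col14a1 stood apart from each other. Col28a1, outside the list, had 3.72 and 3.45 CPM in MGT cells, against 24.0 and 20.6 CPM in LacZ cells (log2FC -2.63 ± 0.23, edgeR adjusted p = 1.54e-09). Col15a1 (log2FC 0.81 ± 0.14, edgeR adjusted p = 0.000149) and Col7a1 (log2FC 0.56 ± 0.12, edgeR adjusted p = 0.00107), both of basement membrane zones, rose. The number that rose was 3 without LacZ library 2 and 3 with either MGT library left out.

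Of the matrix-cutting proteases and their inhibitors, 4 of 17 tested members (18 listed) rose and 8 fell (median log2FC -0.28). Adamts5, which cuts aggrecan and versican, had 186 and 185 CPM in MGT cells, against 485 and 454 CPM in LacZ cells (log2FC -1.34 ± 0.10, edgeR adjusted p = 4.78e-11). Stromelysin 1, Mmp3, had 888 and 967 CPM in MGT cells, against 1758 and 2192 CPM in LacZ cells (log2FC -1.09 ± 0.10, edgeR adjusted p = 1.45e-08). Gelatinase A, Mmp2, had 169.6 and 181 CPM in MGT cells, against 293 and 296 CPM in LacZ cells (log2FC -0.75 ± 0.08, edgeR adjusted p = 4.56e-08). These proteases were abundant in both groups and lower in both MGT libraries. Mmp9 (log2FC 1.43 ± 0.23, edgeR adjusted p = 4.69e-05) and Mmp8 (log2FC 0.67 ± 0.12, edgeR adjusted p = 0.000146), known best from neutrophils, rose. The number that rose was 2 without MGT library 1.

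TGF-beta drives fibroblasts towards contractile, matrix-making myofibroblasts. Of its ligands and of genes of activated fibroblasts, 10 of 20 tested members (21 listed) rose and 4 fell (median log2FC 0.26). Tgfb2 had 90.7 and 89.7 CPM in MGT cells, against 20.5 and 18.0 CPM in LacZ cells (log2FC 2.23 ± 0.13, edgeR adjusted p = 2.56e-11). Tgfb3 had 110.3 and 119 CPM in MGT cells, against 48.5 and 44.9 CPM in LacZ cells (log2FC 1.3 ± 0.10, edgeR adjusted p = 2.39e-10). Cthrc1, a secreted protein of activated fibroblasts in scars, had 196 and 224 CPM in MGT cells, against 29.1 and 38.6 CPM in LacZ cells (log2FC 2.63 ± 0.11, edgeR adjusted p = 4.61e-15). All 3 were at least 2-fold higher in each MGT library than in either LacZ library. Tenascin C, Tnc, a glycoprotein of injured matrix, had 3159.7 and 3028 CPM in MGT cells, against 1733 and 1312 CPM in LacZ cells (log2FC 1.02 ± 0.10, edgeR adjusted p = 2.46e-08). Periostin, Postn, another gene of activated fibroblasts, fell, with 188 and 159 CPM in MGT cells, against 306 and 265 CPM in LacZ cells (log2FC -0.72 ± 0.09, edgeR adjusted p = 1.69e-06). Loxl1, which crosslinks elastin, fell as well (log2FC -0.60 ± 0.09, edgeR adjusted p = 1.03e-05). The number that fell was 2 without MGT library 2.

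Of the smooth muscle contractile genes, which myofibroblasts share, 6 of 16 tested members rose and 2 fell (median log2FC 0.30). Smooth muscle actin, Acta2, had 1627 and 1668 CPM in MGT cells, against 996 and 1078 CPM in LacZ cells (log2FC 0.67 ± 0.08, edgeR adjusted p = 3.63e-07). Transgelin, Tagln, had 282 and 283 CPM in MGT cells, against 193 and 197 CPM in LacZ cells (log2FC 0.53 ± 0.09, edgeR adjusted p = 4.43e-05). Aoc3, an amine oxidase of vascular smooth muscle, fell (log2FC -1.37 ± 0.27, edgeR adjusted p = 0.000472), as did the actin-binding Synpo2 (log2FC -0.90 ± 0.17, edgeR adjusted p = 0.000765). Of the 7 smooth muscle and pericyte markers tested 2 rose, Des and the proteoglycan gene Cspg4. Cspg4 had 30.5 and 23.6 CPM in MGT cells, against 2.69 and 1.48 CPM in LacZ cells (log2FC 3.72 ± 0.21, edgeR adjusted p = 1.56e-10). Myh11, the smooth muscle myosin, had 2.98 and 2.28 CPM in MGT cells, against 2.17 and 1.14 CPM in LacZ cells (log2FC 0.69 ± 0.29, edgeR adjusted p = 0.114), and passed the test only without LacZ library 1.

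Interferons bind receptors at the cell surface and switch on a large set of antiviral genes. Among interferon-stimulated genes 1 of 34 tested members (35 listed) rose and 32 fell (median log2FC -1.25), and 25 of the falls were at least 2-fold. The list summed to 2314 and 2279 CPM in MGT cells, against 5464 and 5564 CPM in LacZ cells. Ifit3 (ENSMUSG00000074896, chromosome 19, 34583531 to 34588731, plus strand), an antiviral protein of the IFIT family, had 73.3 and 66.7 CPM in MGT cells, against 513 and 539 CPM in LacZ cells (log2FC -2.91 ± 0.25, edgeR adjusted p = 0.00018). Part of its reads may be shared with the near-identical Ifit3b, which had 17.1 and 12.7 CPM in MGT cells, against 115 and 119.7 CPM in LacZ cells (log2FC -2.97 ± 0.33, edgeR adjusted p = 0.000778). Mx1, a GTPase that blocks orthomyxoviruses, had 1.18 and 0.896 CPM in MGT cells, against 17.5 and 12.4 CPM in LacZ cells (log2FC -3.83 ± 0.34, edgeR adjusted p = 1.05e-08). In these 3 genes both MGT libraries lay several-fold below both LacZ libraries. Mx2, a relative of Mx1, had 11.2 and 10.0 CPM in MGT cells, against 49.1 and 44.4 CPM in LacZ cells (log2FC -2.14 ± 0.18, edgeR adjusted p = 7.26e-08). Dhx58, which tunes RNA sensing, had 21.1 and 23.4 CPM in MGT cells, against 65.2 and 63.5 CPM in LacZ cells (log2FC -1.53 ± 0.13, edgeR adjusted p = 1.02e-09). Rsad2, which encodes viperin, had 30.1 and 25.6 CPM in MGT cells, against 159.5 and 134 CPM in LacZ cells (log2FC -2.39 ± 0.22, edgeR adjusted p = 4.66e-05). Trim30a, an interferon-induced TRIM protein, fell too (log2FC -1.41 ± 0.12, edgeR adjusted p = 1.7e-08). Ifi27 was the member that rose, with 89.4 and 98.2 CPM in MGT cells, against 43.0 and 57.2 CPM in LacZ cells (log2FC 0.90 ± 0.11, edgeR adjusted p = 2.12e-06). The number that fell was 32 without LacZ library 1 and 30 without LacZ library 2.

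Promoters of Isg15 and Ifit3 are shown because they hold the interferon-stimulated response element, a motif found near many interferon-induced genes. The letters searched, on both strands and in the same windows, were 2 copies of GAAA with any 2 bases between them. They were present in 13 of 24 interferon-stimulated genes with a window (54.2%), in 46 of 196 called genes at least 2-fold lower in MGT cells (23.5%), in 5 of 418 at least 2-fold higher (1.2%), in 359 of 11501 genes tested (3.12%), and in 943 of 27025 promoters (3.49%). The window of Isg15 (chr4:156200769-156201068, minus strand) holds 3 matches that overlap each other, from 78 to 57 bases before the start. That of Ifit3 (chr19:34583279-34583578, plus strand) holds 2 on the other strand, which begin 156 and 122 bases before the start. Capitals mark the matches.
Isg15: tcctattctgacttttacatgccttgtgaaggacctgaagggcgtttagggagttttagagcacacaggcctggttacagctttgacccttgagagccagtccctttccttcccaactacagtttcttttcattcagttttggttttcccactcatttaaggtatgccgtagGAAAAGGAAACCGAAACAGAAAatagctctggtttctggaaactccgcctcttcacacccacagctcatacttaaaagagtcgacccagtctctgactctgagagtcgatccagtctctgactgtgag
Ifit3: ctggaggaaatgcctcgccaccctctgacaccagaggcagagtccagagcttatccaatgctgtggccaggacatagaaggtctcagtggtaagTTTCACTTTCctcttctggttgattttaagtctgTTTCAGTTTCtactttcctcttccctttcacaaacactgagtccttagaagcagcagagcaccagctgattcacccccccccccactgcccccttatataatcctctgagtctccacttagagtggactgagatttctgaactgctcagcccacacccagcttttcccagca

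Isg15, a ubiquitin-like modifier, was chosen with its promoter after its values were seen and had 142 and 141 CPM in MGT cells, against 288 and 336 CPM in LacZ cells (log2FC -1.14 ± 0.17, edgeR adjusted p = 0.00061). In genes that answer mainly to interferon gamma, 0 of 19 tested members (22 listed) rose and 16 fell (median log2FC -1.43). Cxcl10, a chemokine that draws T cells, had 8.0 and 5.10 CPM in MGT cells, against 49.8 and 48.1 CPM in LacZ cells (log2FC -2.89 ± 0.32, edgeR adjusted p = 0.000384). The guanylate-binding protein gene Gbp5 had 4.34 and 3.65 CPM in MGT cells, against 26.7 and 19.3 CPM in LacZ cells (log2FC -2.51 ± 0.21, edgeR adjusted p = 1.7e-09). All of these were lower in both MGT libraries, and Isg15 the least so. Tgtp2, a GTPase gene with a near-identical neighbour, had 5.89 and 4.89 CPM in MGT cells, against 31.8 and 31.1 CPM in LacZ cells (log2FC -2.54 ± 0.27, edgeR adjusted p = 1.86e-05). Gbp6 fell with them (log2FC -2.11 ± 0.21, edgeR adjusted p = 2.36e-08).

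MHC class I molecules show peptides to T cells, and interferon raises the genes that load them. Of the antigen presentation genes 0 of 18 tested members rose and 16 fell (median log2FC -0.80). Tap1, part of the pump that feeds peptides into the endoplasmic reticulum, had 33.7 and 33.4 CPM in MGT cells, against 86.1 CPM in each library of LacZ cells (log2FC -1.36 ± 0.10, edgeR adjusted p = 1.89e-10). Tap2, its partner, had 30.8 and 31.4 CPM in MGT cells, against 62.3 and 64.5 CPM in LacZ cells (log2FC -1.03 ± 0.10, edgeR adjusted p = 1.44e-08). The immunoproteasome subunit gene Psmb8 had 28.1 and 25.5 CPM in MGT cells, against 56.5 and 71.8 CPM in LacZ cells (log2FC -1.26 ± 0.14, edgeR adjusted p = 1.48e-07). The fall was thus seen at the steps of cutting peptides and of moving them. H2-Q4, a class I gene with close copies nearby, had 63.0 and 52.1 CPM in MGT cells, against 138 and 153 CPM in LacZ cells (log2FC -1.34 ± 0.10, edgeR adjusted p = 2.85e-10). Of the 8 macrophage markers 0 fell and 2 rose, beside 8.39% and 8.99% of all genes tested. Those that rose were Csf1r (log2FC 1.15 ± 0.12, edgeR adjusted p = 2.58e-08) and Adgre1 (log2FC 0.54 ± 0.15, edgeR adjusted p = 0.0115). Adgre1 was not called when LacZ library 2 or either MGT library was left out.

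Of the complement and acute-phase genes, 2 of 17 tested members (20 listed) rose and 8 fell (median log2FC -0.38), with a median of -0.66 without MGT library 2. C4b, a complement component, had 11.6 and 11.8 CPM in MGT cells, against 55.3 and 42.1 CPM in LacZ cells (log2FC -2.06 ± 0.16, edgeR adjusted p = 4.62e-10). Ceruloplasmin, Cp, a copper-carrying acute-phase protein, had 243 and 245 CPM in MGT cells, against 527 and 443 CPM in LacZ cells (log2FC -0.99 ± 0.10, edgeR adjusted p = 1.4e-08). Serping1, the C1 inhibitor gene, fell as well (log2FC -0.89 ± 0.09, edgeR adjusted p = 5.32e-08). In the other direction, the serum amyloid gene Saa3 had 437 and 637 CPM in MGT cells, against 96.8 and 104 CPM in LacZ cells (log2FC 2.42 ± 0.19, edgeR adjusted p = 2.04e-05). Cd55, which shields cells from complement, had 241 and 267 CPM in MGT cells, against 104 and 111 CPM in LacZ cells (log2FC 1.24 ± 0.12, edgeR adjusted p = 7.32e-08). For Saa3 the MGT libraries differed from each other by more than the LacZ libraries did, and both were above 400 CPM.

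Chemokines and cytokines moved in both directions, and 6 of 24 tested members (25 listed) rose and 4 fell (median log2FC 0.02). Tslp, an alarm cytokine of barrier tissues, had 40.4 and 35.0 CPM in MGT cells, against 2.81 and 3.24 CPM in LacZ cells (log2FC 3.63 ± 0.16, edgeR adjusted p = 6.08e-15). Il11, a cytokine of fibrotic fibroblasts, had 41.3 and 53.3 CPM in MGT cells, against 8.57 and 12.6 CPM in LacZ cells (log2FC 2.15 ± 0.18, edgeR adjusted p = 2.66e-09). Ccl20, which draws cells that carry CCR6, had 16.1 and 15.4 CPM in MGT cells, against 6.01 and 6.64 CPM in LacZ cells (log2FC 1.31 ± 0.15, edgeR adjusted p = 1.96e-07). These 3 were higher in both MGT libraries. Ccl8, which draws monocytes, had 2.98 and 4.27 CPM in MGT cells, against 12.6 and 14.2 CPM in LacZ cells (log2FC -1.89 ± 0.23, edgeR adjusted p = 6.09e-07). Cxcl12, a homing factor for progenitors, had 273 and 312 CPM in MGT cells, against 515 and 476 CPM in LacZ cells (log2FC -0.76 ± 0.10, edgeR adjusted p = 1.22e-06). The number that fell was 2 without LacZ library 2 and 2 without MGT library 1. Of 16 feedback genes of NF-kappaB 2 rose and 2 fell (12.5% each), beside 8.99% and 8.39% of all genes tested.

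Prostaglandins are made when a phospholipase frees arachidonic acid and a cyclooxygenase converts it. Of the pathway's genes 6 of 12 tested members (13 listed) rose and 1 fell (median log2FC 1.01). Ptgs2, the inducible cyclooxygenase COX-2 (ENSMUSG00000032487, chromosome 1, 150100031 to 150108227, plus strand), had 1262 and 1326 CPM in MGT cells, against 185 and 213 CPM in LacZ cells (log2FC 2.70 ± 0.11, edgeR adjusted p = 8.19e-14). The phospholipase gene Pla2g4a had 238 and 274 CPM in MGT cells, against 95.2 and 110.1 CPM in LacZ cells (log2FC 1.32 ± 0.09, edgeR adjusted p = 2.59e-11). The secreted phospholipase gene Pla2g2e had 15.4 and 19.1 CPM in MGT cells, against 3.01 and 3.75 CPM in LacZ cells (log2FC 2.34 ± 0.22, edgeR adjusted p = 8.13e-09). Both steps of synthesis were thus higher in each MGT library than in either LacZ library. Of the receptors, Ptgfr rose, with 12.4 and 14.1 CPM in MGT cells, against 1.53 and 2.10 CPM in LacZ cells (log2FC 2.85 ± 0.27, edgeR adjusted p = 9.45e-09), and Ptger4 fell (log2FC -0.54 ± 0.12, edgeR adjusted p = 0.00159).

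Of the growth factors and their receptors 13 of 27 tested members (28 listed) rose and 3 fell (median log2FC 0.50). Epiregulin, Ereg, a ligand of the epidermal growth factor receptor, had 656 and 643 CPM in MGT cells, against 354 and 351 CPM in LacZ cells (log2FC 0.88 ± 0.08, edgeR adjusted p = 9.75e-09). Igfbp5, which binds insulin-like growth factors, had 50.6 and 64.5 CPM in MGT cells, against 6.46 and 7.21 CPM in LacZ cells (log2FC 3.07 ± 0.19, edgeR adjusted p = 1.51e-09). Igfbp2 had 10.8 and 11.9 CPM in MGT cells, against 3.45 and 3.29 CPM in LacZ cells (log2FC 1.75 ± 0.18, edgeR adjusted p = 3.81e-08). Each was higher in both MGT libraries. Pdgfa, a mitogen for fibroblasts, rose too (log2FC 1.16 ± 0.12, edgeR adjusted p = 4.14e-08). Fgfr2, a fibroblast growth factor receptor, fell (log2FC -1.19 ± 0.17, edgeR adjusted p = 6.36e-06), and so did Igfbp3 (log2FC -1.04 ± 0.15, edgeR adjusted p = 1.06e-05).

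In BMP signalling 6 of 17 tested members (20 listed) rose and 7 fell (median log2FC -0.11), with medians of -0.17 to -0.27 with 1 library left out. The antagonist follistatin, Fst, had 115 and 123 CPM in MGT cells, against 38.1 and 38.6 CPM in LacZ cells (log2FC 1.64 ± 0.10, edgeR adjusted p = 3.57e-12). The antagonist gremlin 1, Grem1, had 171 and 169.7 CPM in MGT cells, against 85.3 and 73.0 CPM in LacZ cells (log2FC 1.10 ± 0.10, edgeR adjusted p = 2.56e-09). The ligand gene Bmp6 had 35.0 and 34.6 CPM in MGT cells, against 68.6 and 71.4 CPM in LacZ cells (log2FC -1.01 ± 0.10, edgeR adjusted p = 1.5e-08). These are inhibitors that rose and a ligand that fell. Id3, a target of BMP signals, had 204 and 214 CPM in MGT cells, against 391 and 455 CPM in LacZ cells (log2FC -1.02 ± 0.09, edgeR adjusted p = 3.12e-09). Of the Wnt genes 4 of 24 tested members (26 listed) rose and 6 fell (median log2FC 0.18), with a median of -0.05 without MGT library 1, -0.08 without MGT library 2, 0.39 without LacZ library 1 and 0.11 without LacZ library 2. The modulator Sfrp2 had 2.42 and 2.69 CPM in MGT cells, against 16.2 CPM in each library of LacZ cells (log2FC -2.67 ± 0.20, edgeR adjusted p = 1.54e-10). Dkk3, another secreted modulator, fell (log2FC -1.43 ± 0.14, edgeR adjusted p = 1.66e-08). Axin2, a standard target of beta-catenin, had 4.59 and 3.59 CPM in MGT cells, against 0.384 and 0.114 CPM in LacZ cells (log2FC 4.04 ± 0.48, edgeR adjusted p = 4.12e-07). Rspo3, which amplifies Wnt signals, had 18.3 and 22.4 CPM in MGT cells, against 4.67 and 5.34 CPM in LacZ cells (log2FC 2.02 ± 0.20, edgeR adjusted p = 1.66e-08). In the Notch list 1 of 13 members rose and 2 fell, beside 8.99% and 8.39% of all genes tested. Those that fell included the ligand Jag1 (log2FC -0.78 ± 0.12, edgeR adjusted p = 1.36e-05).

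Cholesterol synthesis is governed by SREBP2, which is held back when sterols are plentiful. Of its genes 0 of 20 tested members rose and 17 fell (median log2FC -0.71). Insig1, the anchor that retains SREBP in the endoplasmic reticulum and is itself a target, had 30.9 and 35.0 CPM in MGT cells, against 78.0 and 78.4 CPM in LacZ cells (log2FC -1.25 ± 0.11, edgeR adjusted p = 1.2e-09). Hmgcs1, which makes the precursor of mevalonate, had 38.6 and 38.1 CPM in MGT cells, against 67.9 and 73.5 CPM in LacZ cells (log2FC -0.88 ± 0.09, edgeR adjusted p = 6.71e-08). Cyp51, which acts late in the pathway, had 31.2 and 30.9 CPM in MGT cells, against 68.4 and 61.6 CPM in LacZ cells (log2FC -1.07 ± 0.10, edgeR adjusted p = 1.81e-08). Early and late steps were thus both lower in each MGT library than in either LacZ library. Msmo1, another late enzyme, fell as well (log2FC -0.86 ± 0.11, edgeR adjusted p = 7.18e-07). The number that fell was 16 without LacZ library 1, 17 without LacZ library 2 and 17 with an adjustment for gene length that was added after the data were seen.

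Of the glycolysis and hypoxia genes 4 of 22 tested members rose and 11 fell (median log2FC -0.30), with a median of -0.17 without LacZ library 2. The phosphofructokinase gene Pfkl had 92.7 and 94.1 CPM in MGT cells, against 174 and 169 CPM in LacZ cells (log2FC -0.88 ± 0.09, edgeR adjusted p = 2.18e-08). Bnip3, a mitophagy receptor induced by hypoxia, had 53.4 and 55.3 CPM in MGT cells, against 104 and 107 CPM in LacZ cells (log2FC -0.96 ± 0.10, edgeR adjusted p = 3.99e-08). Other hypoxia-induced genes were instead higher. Egln3, an oxygen sensor, had 63.2 and 69.5 CPM in MGT cells, against 21.3 and 21.7 CPM in LacZ cells (log2FC 1.62 ± 0.19, edgeR adjusted p = 6.08e-05). Ndrg1, a stress-response gene, had 34.2 and 32.1 CPM in MGT cells, against 10.2 and 12.3 CPM in LacZ cells (log2FC 1.55 ± 0.13, edgeR adjusted p = 1.7e-09).

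Of the mitosis genes 0 of 25 tested members rose and 14 fell (median log2FC -0.32). Nusap1, a spindle protein, had 28.8 and 28.5 CPM in MGT cells, against 42.1 and 49.1 CPM in LacZ cells (log2FC -0.67 ± 0.11, edgeR adjusted p = 4.32e-05). Ccnb2, a mitotic cyclin, had 57.9 and 53.5 CPM in MGT cells, against 74.5 and 87.2 CPM in LacZ cells (log2FC -0.54 ± 0.10, edgeR adjusted p = 0.00022). No member fell by as much as 2-fold. The number that fell was 16 without LacZ library 1, 11 without LacZ library 2, 8 without MGT library 1, 6 without MGT library 2 and 7 with the 3-month libraries fitted alone. Of the DNA replication genes 0 of 26 tested members rose and 7 fell (26.9%, median log2FC -0.19), beside 8.99% and 8.39% of all genes tested. The median was -0.15 without LacZ library 2 and -0.17 without MGT library 2. In both of these fits fewer members fell, a share near that of all genes tested in the same fit.

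Counts for protein synthesis, respiration and protein folding changed with the libraries that entered. Of 24 ribosomal protein genes, which have many pseudogene copies, 6 fell (median log2FC -0.21, against -0.35 without LacZ library 1 and -0.06 without LacZ library 2). There were 22 falls without LacZ library 1, and 0 when LacZ library 2 or either MGT library was left out. Of 23 respiratory chain genes 0 were called, and 10 fell without LacZ library 1. Of 25 genes of the unfolded protein and integrated stress responses 2 rose and 4 fell, with 11 falls without LacZ library 1 and 0 without any one of the other 3 libraries. With all libraries in the fit, 8.99% of all genes tested rose and 8.39% fell. These shares do not apply to the counts with 1 library left out. The members of the stress response list that rose were Slc7a11, a cystine importer (log2FC 1.02 ± 0.16, edgeR adjusted p = 0.000324), and Chac1, which degrades glutathione (log2FC 0.88 ± 0.18, edgeR adjusted p = 0.000721). With the adjustment for gene length the falls numbered 6, 0 and 3 in these 3 lists, in the order given.

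Nr4a3 (ENSMUSG00000028341, chromosome 4, 48045153 to 48086447, plus strand), an orphan nuclear receptor and immediate early gene that the study overexpressed and knocked down in other samples, had 37.6 and 44.6 CPM in MGT cells, against 11.3 and 13.5 CPM in LacZ cells (log2FC 1.72 ± 0.17, edgeR adjusted p = 1.25e-07). Both MGT libraries lay above both LacZ libraries. Its log2FC was 1.72 in neonatal and 1.43 in 18-month cells. The 3-month value differed by 0.01 ± 0.41 (edgeR adjusted p = 0.999) from the neonatal and by 0.29 ± 0.25 (edgeR adjusted p = 0.716) from the 18-month value, and neither difference passed the test. Of the immediate early genes 4 of 23 tested members rose and 4 fell (median log2FC -0.06), beside 8.99% and 8.39% of all genes tested. Dusp6, a brake on ERK signalling, had 81.6 and 87.0 CPM in MGT cells, against 50.5 and 54.2 CPM in LacZ cells (log2FC 0.69 ± 0.09, edgeR adjusted p = 1.28e-06). Klf2 (log2FC -0.91 ± 0.21, edgeR adjusted p = 0.0073) and Klf4 (log2FC -0.34 ± 0.09, edgeR adjusted p = 0.0073), zinc-finger factors, fell. Without MGT library 1 no member fell, and Klf4 was not called without MGT library 2 either. Of the CDK inhibitors and p53 targets 4 of 23 tested members rose and 3 fell (median log2FC -0.05), beside the same shares of all genes tested. Plk2 (log2FC 0.69 ± 0.08, edgeR adjusted p = 2.7e-07) and Btg2 (log2FC 0.48 ± 0.08, edgeR adjusted p = 6.38e-05) rose. Cdkn1b, the inhibitor p27 (log2FC -0.51 ± 0.10, edgeR adjusted p = 0.000384), and Cdkn2c (log2FC -0.51 ± 0.11, edgeR adjusted p = 0.00146) fell, and the number that fell was 7 without LacZ library 1. Of 23 genes known as barriers or helpers of reprogramming 3 rose and 2 fell (13.0% and 8.70%, beside 8.99% and 8.39% of all genes tested), and 6 rose without LacZ library 1, where 12.9% of all genes tested rose. Snai1, which represses epithelial genes, was among those that fell (log2FC -0.72 ± 0.10, edgeR adjusted p = 7e-06), and 1 fell with either MGT library left out.

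Mesothelial and epicardial markers held 4 members that rose and 1 that fell of 8 tested, beside 8.99% and 8.39% of all genes tested. They summed to 88.1 and 92.9 CPM in MGT cells, against 8.70 and 9.26 CPM in LacZ cells. Mesothelin, Msln (ENSMUSG00000063011, chromosome 17, 25748613 to 25754378, minus strand), had 36.4 and 36.5 CPM in MGT cells, against 1.02 and 0.738 CPM in LacZ cells (log2FC 5.37 ± 0.18, edgeR adjusted p = 1.12e-17). The uroplakin gene Upk1b had 30.9 and 36.4 CPM in MGT cells, against 0.959 and 0.738 CPM in LacZ cells (log2FC 5.30 ± 0.19, edgeR adjusted p = 3.71e-17). Upk3b, another mesothelial marker, fell (log2FC -1.43 ± 0.31, edgeR adjusted p = 0.00121). Wt1, the defining epicardial factor, was near 0, with 6 counts over the MGT libraries and 3 over the LacZ libraries. Flt1, a receptor for vascular endothelial growth factor that marks endothelium in adult tissue, had 63.5 and 54.6 CPM in MGT cells, against 1.6 and 1.48 CPM in LacZ cells (log2FC 5.26 ± 0.18, edgeR adjusted p = 1.41e-17). Of the 8 endothelial markers 2 rose and 1 fell, beside 8.99% and 8.39% of all genes tested. Pecam1, a defining one, had 6.32 and 3.86 CPM in MGT cells, against 2.37 and 3.07 CPM in LacZ cells (log2FC 0.91 ± 0.24, edgeR adjusted p = 0.00845), and was not called without LacZ library 1 or without MGT library 1. The number of endothelial markers that rose was lower in both of these cases, and higher without LacZ library 2.

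The MGT effect differed between 3-month and neonatal cells at 605 genes (3.7%), of which 374 (2.28%) had a more positive and 231 (1.41%) a more negative log2FC in 3-month cells. These differences are the log2FC in 3-month cells minus that in neonatal cells, from the same fit. Marker sums also differed between the ages, in both directions. Cardiomyocyte markers summed to 972 and 1416 CPM in neonatal MGT cells, against 334 and 287 CPM in neonatal LacZ cells, and most of each sum was Tnnt2. Epicardial and mesothelial markers summed to 338 and 364 CPM in neonatal MGT cells, against 738 and 678 CPM in neonatal LacZ cells. Endothelial markers summed to 317 and 272 CPM in neonatal MGT cells, against 344 and 377 CPM in neonatal LacZ cells. These sums were above those of the same treatment at 3 months, while macrophage markers were below them, with 173 and 241 CPM in neonatal MGT cells, against 209 and 262 CPM in neonatal LacZ cells. Xist, which female cells express, had 0.372 and 0.414 CPM in 3-month MGT cells, against 0.512 and 0.568 CPM in 3-month LacZ cells. It had 526 and 439.8 CPM in neonatal MGT cells, against 516 and 548 CPM in neonatal LacZ cells, and at most 0.348 CPM in the 18-month libraries. The part of cell types and of donor sex in the differences was not tested. The number of differences was 1760 without LacZ library 1, 363 without MGT library 1 and 382 without MGT library 2.

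The most positive differences from neonatal cells were at genes that neonatal LacZ cells already expressed. Myl7 had 47.2 and 75.2 CPM in neonatal MGT cells, against 8.26 and 9.28 CPM in neonatal LacZ cells, and the MGT effects differed (edgeR adjusted p = 4.16e-05). Actc1 had 35.5 and 61.8 CPM in neonatal MGT cells, against 4.96 CPM in each library of neonatal LacZ cells, and the effects differed (edgeR adjusted p = 0.00645), though not without LacZ library 2. With 0 to 2 counts in 3-month LacZ cells, the size of these 2 differences is not given. Msln had 118 and 135 CPM in neonatal MGT cells, against 127 and 122 CPM in neonatal LacZ cells, a difference of 5.35 ± 0.21 (edgeR adjusted p = 1.48e-15). Upk1b had 83.0 and 89.6 CPM in neonatal MGT cells, against 146 and 139 CPM in neonatal LacZ cells, a difference of 6.03 ± 0.22 (edgeR adjusted p = 4.88e-16). Tnnt2 had 879 and 1276 CPM in neonatal MGT cells, against 310.0 and 262 CPM in neonatal LacZ cells, a difference of 4.74 ± 0.32 (edgeR adjusted p = 2.77e-05). The 3-month MGT libraries overlapped the neonatal LacZ libraries in their level of Tnnt2, and reached less than 40% of the neonatal MGT level. Flt1 had 119.7 and 126 CPM in neonatal MGT cells, against 54.2 and 60.5 CPM in neonatal LacZ cells, a difference of 4.16 ± 0.22 (edgeR adjusted p = 1.21e-12). Of the muscle lists, 2 of 11 members in the thin filament, 1 of 8 in the thick filament, 2 of 18 in the Z-disc and M-band and 0 of 9 skeletal muscle genes were more positive than in neonatal cells, beside 2.28% of all genes tested, and 1 skeletal muscle gene was more negative.

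The most negative differences from neonatal cells joined genes with a less positive MGT effect at 3 months and genes with a more negative one. Abi3bp, a matrix protein, had 32.9 and 49.6 CPM in 3-month MGT cells, against 8.06 and 6.81 CPM in 3-month LacZ cells. It had 21.4 and 25.3 CPM in neonatal MGT cells, against 0.456 and 0.480 CPM in neonatal LacZ cells, a difference of -3.15 ± 0.38 (edgeR adjusted p = 5.7e-06). Ackr3, a scavenger receptor for Cxcl12, had 68.5 and 78.3 CPM in 3-month MGT cells, against 34.1 CPM in each library of 3-month LacZ cells. It had 30.8 and 50.1 CPM in neonatal MGT cells, against 6.32 and 6.56 CPM in neonatal LacZ cells, a difference of -1.54 ± 0.27 (edgeR adjusted p = 0.00465) that did not pass the test with either LacZ library left out. In both genes the MGT libraries were higher at either age, and the neonatal LacZ level was the lower one. Ifit3 had 349 and 272 CPM in neonatal MGT cells, against 565 and 614 CPM in neonatal LacZ cells, a difference of -1.98 ± 0.34 (edgeR adjusted p = 0.0236) that did not pass the test without LacZ library 2, nor with either MGT library left out. Cyp7b1 had 4.09 and 3.52 CPM in 3-month MGT cells, against 20.7 and 21.9 CPM in 3-month LacZ cells. It had 1.35 and 1.82 CPM in neonatal MGT cells, against 2.79 and 1.92 CPM in neonatal LacZ cells, a difference of -1.91 ± 0.42 (edgeR adjusted p = 0.00645).

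**Figure D4:**
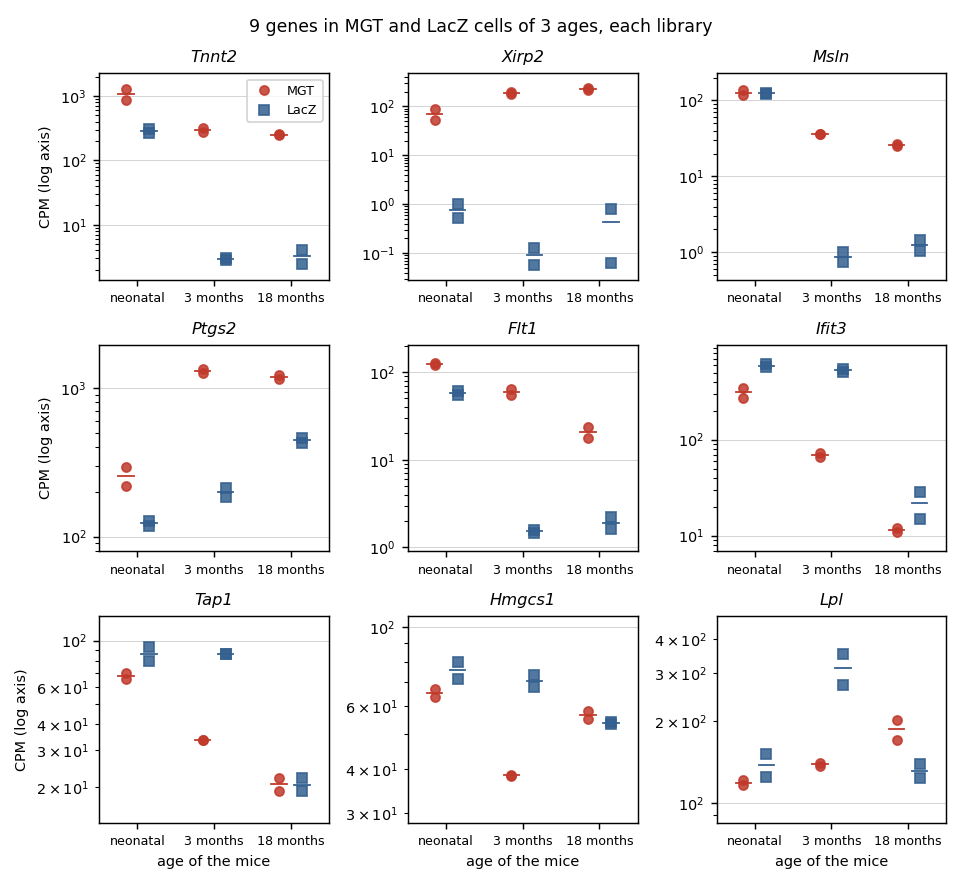
CPM of each library (log y axis) of 9 genes in MGT (red circles) and LacZ cells (blue squares) of neonatal, 3-month and 18-month mice, with a bar at each mean. Msln lies at 36.4 and 36.5 CPM in 3-month MGT cells and at 1.02 and 0.738 CPM in 3-month LacZ cells, and between 118 and 135 CPM in all neonatal libraries.

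In some lists of signalling genes the MGT effect was more positive in 3-month than in neonatal cells at several members. The growth factor list held 9 such members and 1 more negative of 27, the prostaglandin list 5 and 0 of 12, the TGF-beta list 5 and 1 of 20, and the chemokines and cytokines 4 and 1 of 24, beside 2.28% and 1.41% of all genes tested. Ptgs2 had 292 and 219 CPM in neonatal MGT cells, against 117 and 128 CPM in neonatal LacZ cells, a difference of 1.64 ± 0.15 (edgeR adjusted p = 4.02e-07). It had 1219 and 1144 CPM in 18-month MGT cells, against 461 and 423 CPM in 18-month LacZ cells, a difference of 1.28 ± 0.15 (edgeR adjusted p = 6.41e-05). The MGT effect on Ptgs2 was therefore larger at 3 months than at either other age. Pdk4 had 23.5 and 21.9 CPM in neonatal MGT cells, against 14.5 and 10.7 CPM in neonatal LacZ cells, a difference of 1.92 ± 0.19 (edgeR adjusted p = 2.45e-07). Tnc had a log2FC of 1.02 ± 0.10 in 3-month and 0.01 in neonatal cells, a difference of 1.01 ± 0.14 (edgeR adjusted p = 4.08e-05). Il11 had a neonatal log2FC of 0.04, a difference of 2.11 ± 0.44 (edgeR adjusted p = 0.00465). For Ccl20 the neonatal log2FC was -0.75, a difference of 2.06 ± 0.20 (edgeR adjusted p = 1.11e-07).

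From 18-month cells the MGT effect at 3 months differed at 383 genes (2.34%), with 128 (0.782%) more positive and 255 (1.56%) more negative at 3 months. The number was 888 without LacZ library 1, 1012 without LacZ library 2, 170 without MGT library 1 and 222 without MGT library 2. Flt1 had 23.7 and 17.9 CPM in 18-month MGT cells, against 2.20 and 1.62 CPM in 18-month LacZ cells, a difference of 1.82 ± 0.31 (edgeR adjusted p = 0.00103). Upk1b had 26.5 and 30.6 CPM in 18-month MGT cells, against 1.62 and 2.18 CPM in 18-month LacZ cells, a difference of 1.39 ± 0.32 (edgeR adjusted p = 0.0166) that did not pass the test without LacZ library 2. In both genes the MGT libraries lay above the LacZ libraries at either age, and by more at 3 months. Vgf, a neuropeptide precursor, had 15.5 and 12.4 CPM in 3-month MGT cells, against 6.65 and 6.13 CPM in 3-month LacZ cells. It had 12.6 and 16.6 CPM in 18-month MGT cells, against 18.4 and 15.9 CPM in 18-month LacZ cells, a difference of 1.36 ± 0.24 (edgeR adjusted p = 0.00132). Sprr2h, one of a cluster of near-identical genes, had 26.9 and 25.9 CPM in 3-month MGT cells, against 1.73 and 3.24 CPM in 3-month LacZ cells, beside an 18-month log2FC of 1.90 and a difference of 1.49 ± 0.31 (edgeR adjusted p = 0.00773).

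On the negative side, Pdlim3, a Z-disc LIM protein, had 24.4 and 25.0 CPM in 3-month MGT cells, against 9.98 and 11.9 CPM in 3-month LacZ cells. It had 36.1 and 34.1 CPM in 18-month MGT cells, against 1.10 and 1.68 CPM in 18-month LacZ cells, a difference of -3.49 ± 0.35 (edgeR adjusted p = 8.46e-05). The MGT levels of Pdlim3 were within 1.5-fold of each other at the 2 ages, and the LacZ levels were not. Serpina3i, from a cluster of close copies, had 21.4 and 22.0 CPM in 3-month MGT cells, against 13.6 and 13.1 CPM in 3-month LacZ cells. It had 4.02 and 5.19 CPM in 18-month MGT cells, against 0.0579 and 0.808 CPM in 18-month LacZ cells, a difference of -2.73 ± 0.45 (edgeR adjusted p = 0.00101). Ndufa4l2 had 3.04 and 2.34 CPM in 3-month MGT cells, against 17.1 and 16.0 CPM in 3-month LacZ cells. It had 0.565 and 0.50 CPM in 18-month MGT cells, against 0.406 and 0.498 CPM in 18-month LacZ cells, a difference of -2.85 ± 0.56 (edgeR adjusted p = 0.00432), and the 18-month libraries of both groups were near 0.5 CPM.

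Interferon, class I and sterol genes were among those with more negative effects at 3 than at 18 months. In the interferon-stimulated list 11 of 34 members were more negative and 1 more positive at 3 months. In antigen presentation 10 of 18 and in sterol synthesis 15 of 20 were more negative, beside 1.56% of all genes tested. Against neonatal cells 11, 3 and 5 members of the 3 lists were more negative at 3 months, beside 1.41% of all genes tested. The median log2FC of the interferon-stimulated list was -0.51 in neonatal, -1.25 in 3-month and -0.33 in 18-month cells. For antigen presentation these medians were -0.33, -0.80 and -0.09, and for sterol synthesis -0.28, -0.71 and 0.08, in the same order of ages.

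In LacZ cells, summed CPM lay further apart between ages for the interferon list than for the sterol list. Interferon-stimulated genes summed to 3699 and 3083 CPM in neonatal MGT cells, against 4719 and 5016 CPM in neonatal LacZ cells. They summed to 554 and 596 CPM in 18-month MGT cells, against 591 and 773 CPM in 18-month LacZ cells, so that both 18-month groups lay below the 3-month MGT libraries. Rsad2 had 7.03 and 8.62 CPM in 18-month MGT cells, against 4.64 and 8.64 CPM in 18-month LacZ cells, a difference of -2.64 ± 0.38 (edgeR adjusted p = 0.00767) from 18-month cells. Tap1 had 19.1 and 22.1 CPM in 18-month MGT cells, against 19.1 and 22.0 CPM in 18-month LacZ cells, a difference of -1.36 ± 0.16 (edgeR adjusted p = 1.74e-05). Tap1 had 70.0 and 65.3 CPM in neonatal MGT cells, against 80.1 and 93.0 CPM in neonatal LacZ cells, a difference of -1.0 ± 0.14 (edgeR adjusted p = 4.86e-05). Interferon LacZ levels at 18 months lay far from those at 3 months. For that comparison, an age difference in the MGT effect and one in the LacZ state cannot be told apart. Neonatal LacZ sums of the interferon list lay closer to the 3-month LacZ sums, which were 5464 and 5564 CPM. Sterol genes summed to 757 and 776 CPM in neonatal MGT cells, against 940.0 and 878 CPM in neonatal LacZ cells. At 3 months they summed to 555 and 545 CPM in MGT cells, against 925 and 848 CPM in LacZ cells, and at 18 months to 816 and 879 CPM in 18-month MGT cells, against 811 and 771 CPM in 18-month LacZ cells. The 3-month MGT libraries were thus the lowest of the 12. Hmgcs1 had 58.1 and 55.2 CPM in 18-month MGT cells, against 54.0 and 53.4 CPM in 18-month LacZ cells, a difference of -0.96 ± 0.13 (edgeR adjusted p = 0.000112), and its difference from neonatal cells was -0.67 ± 0.13 (edgeR adjusted p = 0.00193). Insig1 had 35.5 and 36.5 CPM in 18-month MGT cells, against 41.9 and 42.7 CPM in 18-month LacZ cells, a difference of -1.02 ± 0.15 (edgeR adjusted p = 0.00023).

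**Figure D5:**
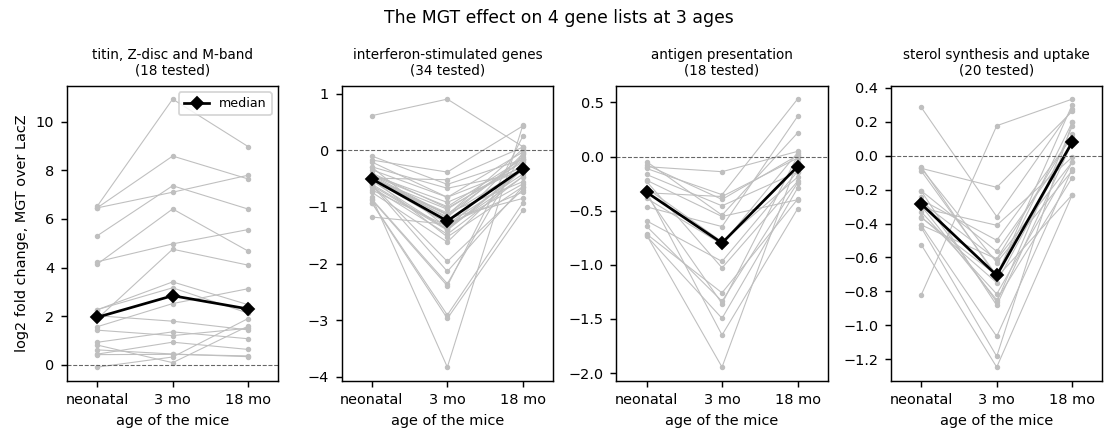
log2FC of MGT over LacZ (y axis) in neonatal, 3-month and 18-month cells (x axis) for each tested member of 4 lists, grey lines joining the values of a gene and black diamonds marking the medians. Interferon-stimulated, antigen presentation and sterol genes have their lowest medians at 3 months (-1.25, -0.80 and -0.71), and the Z-disc list has medians of 1.95, 2.84 and 2.29 in neonatal, 3-month and 18-month cells.

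Against 18-month cells, 6 of 19 collagens and 5 of 16 small proteoglycans and elastic fibre genes were more negative at 3 months and 0 of either more positive, beside 1.56% and 0.782% of all genes tested. Lpl, lower in MGT cells at 3 months, had 203 and 171 CPM in 18-month MGT cells, against 124 and 139 CPM in 18-month LacZ cells, a difference of -1.68 ± 0.17 (edgeR adjusted p = 6.11e-05). Col3a1 had 940.1 and 1015 CPM in 18-month MGT cells, against 1148 and 1402 CPM in 18-month LacZ cells, a difference of -1.0 ± 0.14 (edgeR adjusted p = 0.000166). Of the sarcomere genes 0 of 11 in the thin filament, 0 of 8 in the thick filament and 2 of 18 in the Z-disc and M-band differed between 3 and 18 months, 1 in each direction, beside 2.34% of all genes tested. Lists this short would hold few such genes at that share. Tnnt2 had 248 and 254 CPM in 18-month MGT cells, against 4.11 and 2.49 CPM in 18-month LacZ cells, a difference of 0.42 ± 0.42 (edgeR adjusted p = 0.774). Ttn had 51.1 and 57.1 CPM in 18-month MGT cells, against 1.45 and 0.808 CPM in 18-month LacZ cells, a difference of -0.59 ± 0.75 (edgeR adjusted p = 0.842). Xirp2 had 218 and 242 CPM in 18-month MGT cells, against 0.811 and 0.0622 CPM in 18-month LacZ cells, and the difference did not pass the test (edgeR adjusted p = 0.793). These p-values do not show that the effects are alike.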

How the data were processed

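RNA of primary cardiac fibroblasts was sequenced as bulk libraries. The deposited table gives raw read counts per gene and library, which the authors made from the reads. It also holds FPKM values, each the count over the gene's exonic length and the library's total, as deposited and per the file headers. Per the submitters' processing notes, Trimmomatic 0.36, featureCounts of Subread 1.5.1, SAMtools and mm10 were named, with no role or order. The aligner, the annotation release and the counting strand are not given in the sources used here. Per the labels, both polyA RNA and removal of ribosomal RNA are stated. Titles of the LacZ libraries also carry the letters MGT, and headers of the oldest groups say 15 months where the labels say 18. Groups were taken from the labels' treatment and age.

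The 12 libraries of the table held 14489836 to 18796708 counts, and 1 CPM stands for about 14.5 counts in the shallowest. Intervals and floors cover counting error only. Genes passing filterByExpr (16368 of 55401) were fitted with edgeR 4.0.16 (R 4.3.3, limma 3.58.1), 1 coefficient per group, TMM factors and robust quasi-likelihood dispersion, so the spread of 2 libraries per group was shared over 6 groups. The LacZ libraries of 3-month cells agreed least, with a chi-square per degree of freedom of 18.9 between the pair, against 2.29 to 6.66 in the other groups. The shared spread may therefore be too small for the 3-month contrast. Tests were two-sided, with Benjamini-Hochberg adjustment over all genes tested. Differences between ages were contrasts of the same fit. Errors of log2FC are approximate standard errors, the absolute log2FC over the square root of the test's F. They are unreliable where the log2FC or difference is very small. Alternatives were DESeq2 1.42.0, RLE factors, no filter, a block for the replicate number, the 3-month libraries alone, each of the 4 libraries left out, a 2-fold limit and, added after the data were seen, offsets for gene length.

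Genes were named by a rule: the 3 factors and Nr4a3, the 10 largest rises and 10 largest falls, per list the 4 smallest p and up to 2 called the other way, and the 4 most positive and 4 most negative differences per age. A gene that the rule names is not reported here. Members and lists were chosen with earlier results of these data known. Promoters are RefSeq windows, 1 per gene symbol, found for 11501 of the 16368 genes tested.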

Additional observations from a re-analysis of the deposited data

Results flagged for a closer look

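The results below are those whose MGT effect differed between ages by edgeR's quasi-likelihood test of the difference itself (Benjamini-Hochberg adjusted p under 0.05). Values are the log2FC in 3-month cells minus that at the other age. Of the 171 tested genes that the text names, 89 differed from neonatal and 53 from 18-month cells, and those whose values are given are listed. Of all genes tested, 3.7% differed from neonatal and 2.34% from 18-month cells. By the rule, only the 4 most positive and 4 most negative per age were named for such a difference. Most others were named for their change at 3 months, so these counts describe the choice of genes.

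Against neonatal cells, Tnnt2 (4.74), Msln (5.35) and Upk1b (6.03) were more positive at 3 months. Myl7 (edgeR adjusted p = 4.16e-05) and Actc1 (edgeR adjusted p = 0.00645) differed as well. Flt1 differed by 4.16. Other genes were also more positive, with 1.64 for Ptgs2, 1.92 for Pdk4, 1.01 for Tnc, 2.11 for Il11 and 2.06 for Ccl20. More negative at 3 months were Abi3bp (-3.15), Ackr3 (-1.54), Ifit3 (-1.98), Cyp7b1 (-1.91), Tap1 (-1.0) and Hmgcs1 (-0.67).

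Against 18-month cells, Flt1 (1.82), Vgf (1.36), Sprr2h (1.49), Upk1b (1.39) and Ptgs2 (1.28) were more positive at 3 months. More negative were Pdlim3 (-3.49), Serpina3i (-2.73) and Ndufa4l2 (-2.85), the interferon and class I genes Rsad2 (-2.64) and Tap1 (-1.36), the sterol genes Hmgcs1 (-0.96) and Insig1 (-1.02), Lpl (-1.68) and Col3a1 (-1.0).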

How the results depend on the processing

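Leaving out 1 library of the 3-month groups at a time gave 1732 to 4476 calls of MGT over LacZ, with 968 to 2202 higher and 764 to 2274 lower. It gave 363 to 1760 differences from neonatal cells (254 to 1016 positive, 105 to 744 negative) and 170 to 1012 from 18-month cells (53 to 474 positive, 117 to 552 negative). The lone library of a group was then assumed to vary like the other groups. With the 3-month libraries alone there were 1798 calls, 802 of them lower, from fewer samples and from the spread of the 3-month groups only. Which of these lowered the number was not tested. A limit of 2-fold left 930 by construction. Positive differences from 18-month cells numbered 193 with the length offsets and 199 without the filter, against 128, and the cause was not tested. DESeq2 made 2329 calls, RLE factors 2832, no filter 2820 and the length offsets 3130, each within 1.5 times of 2846. Of the 2846 calls, DESeq2 shared 2293 in the same direction, the 3-month libraries alone 1784, and the fits without 1 library 1697 to 2533. Calls higher in MGT cells made up 49.2% to 55.9% over all settings. With the replicate number as a block there were 3093 calls, 758 differences from neonatal and 499 from 18-month cells. Same-numbered MGT and LacZ libraries deviated together with a correlation of 0.06 at 3 months and near 0 at the other ages, so the numbers were not taken to pair them.

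No named gene changed direction while called under any of these settings. Calls were lost with 1 library left out by Adgre1, Chrna1, Chrnb1, Gjc1, Klf2, Klf4, Pecam1 and Serpina3i, and with the 3-month libraries alone by Gjc1, Klf4, Pecam1 and Upk3b. Gjc1 was also lost by DESeq2 and without the filter, and Ifit3's difference from neonatal cells without the filter. Medians close to 0 that changed sign with 1 library left out included those of the collagens, the chemokines and cytokines, the immediate early genes and the CDK inhibitors. They also included those of NF-kappaB feedback, the respiratory chain, and the barriers and helpers of reprogramming. The medians of the Wnt list and, over the 9 members above the filter, of the natriuretic peptide list changed sign as well, as given above. With 2 libraries per group, small changes could be missed at this depth, and genes under a few counts are given as ratios or bounds.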

Other observations

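Some large changes lay outside every gene list, and the genes given here were chosen after their values were seen. Nidogen 2, Nid2, a linker protein of basement membranes, had 3018 and 3249.8 CPM in MGT cells, against 261 and 189.8 CPM in LacZ cells (log2FC 3.8 ± 0.18, edgeR adjusted p = 7.98e-08). Nephronectin, Npnt, a matrix ligand of integrins, had 336 and 367 CPM in MGT cells, against 37.7 and 31.8 CPM in LacZ cells (log2FC 3.34 ± 0.11, edgeR adjusted p = 1.35e-17). Itga7, the laminin receptor chain of muscle, had 145 and 154 CPM in MGT cells, against 9.02 and 8.06 CPM in LacZ cells (log2FC 4.13 ± 0.13, edgeR adjusted p = 3.57e-18). The MGT libraries of these 3 genes of the cell's outer coat and its receptors lay far above the LacZ libraries. Clusterin, Clu, a secreted chaperone, had 1489 and 1787 CPM in MGT cells, against 85.1 and 88.1 CPM in LacZ cells (log2FC 4.24 ± 0.12, edgeR adjusted p = 1.08e-16). The surface glycoprotein gene Cd24a had 133 and 146 CPM in MGT cells, against 6.72 and 11.2 CPM in LacZ cells (log2FC 3.95 ± 0.21, edgeR adjusted p = 1.03e-07). Sox11, a factor of progenitor cells in the embryo, had 29.4 and 32.0 CPM in MGT cells, against 1.73 and 2.61 CPM in LacZ cells (log2FC 3.8 ± 0.20, edgeR adjusted p = 6.76e-14).

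Among falls outside the lists, Vegfd, a growth factor for lymphatic vessels, had 37.6 and 42.4 CPM in MGT cells, against 133 and 140.3 CPM in LacZ cells (log2FC -1.77 ± 0.11, edgeR adjusted p = 1.65e-12). Sox9, a factor of cartilage and of matrix-making cells, had 23.7 and 26.2 CPM in MGT cells, against 68.2 and 72.1 CPM in LacZ cells (log2FC -1.49 ± 0.12, edgeR adjusted p = 5.64e-10). Dermatopontin, Dpt, a small matrix protein, had 6.94 and 8.27 CPM in MGT cells, against 26.5 and 31.2 CPM in LacZ cells (log2FC -1.93 ± 0.17, edgeR adjusted p = 4.36e-09). Cytoglobin, Cygb, an oxygen-binding globin of fibroblasts, had 18.5 and 18.9 CPM in MGT cells, against 73.7 and 70.9 CPM in LacZ cells (log2FC -1.95 ± 0.13, edgeR adjusted p = 1.12e-11). The groups did not overlap in any of these 4 genes, as in every called gene.

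Of the 3 Schwann cell markers above the filter on low counts 1 rose and 1 fell, beside 8.99% and 8.39% of all genes tested. Of the skeletal myoblast markers only Chrna1, a subunit of the acetylcholine receptor, was above the filter, and it rose (log2FC 0.95 ± 0.26, edgeR adjusted p = 0.0118). Chrna1 was not called when LacZ library 2 or either MGT library was left out.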
